A study of Mus musculus with 4 samples.

Results

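The genes of cholesterol and fatty acid synthesis were examined for SOX2 binding in the mouse cortex, with 34 genes chosen by name out of 21631 protein-coding genes. They fall into 5 regulators, 16 enzymes of sterol synthesis and 13 enzymes that make, lengthen or desaturate fatty acids. Binding was mapped by ChIP-seq, which recovers the DNA fragments held by a chosen protein with an antibody (immunoprecipitation, IP) and sequences them beside unselected input DNA. The tissue was cortex of 2-month-old male wild-type C57BL/6 mice, and the groups were 3 libraries made with a rabbit polyclonal antibody to SOX2 (IP libraries 1, 2 and 3) and 1 input library made with no antibody. A label that names SOX2 as a transduced factor is attached to all of them, the input included, and does not match the wild-type tissue that the protocol describes. The series title concerns SOX2 deletion in astrocytes and brain injury, but no library is labelled as deleted or injured. Whole cortex mixes astrocytes, neurons and other cells, so binding in fewer cells and weaker binding in each cell cannot be told apart. The labels do not tie the IP libraries to separate animals, and their spread may be only technical.

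Cells make cholesterol from acetyl-CoA through mevalonate, squalene and lanosterol, and make fatty acids from the same acetyl-CoA through malonyl-CoA. Transcription factors of the SREBP family, encoded by Srebf1 and Srebf2, switch on both sets of enzymes when membrane sterol is low. SCAP escorts the SREBP proteins out of the endoplasmic reticulum and INSIG proteins hold them back. In the adult brain astrocytes are known as a main source of cholesterol and of long polyunsaturated fatty acids for neurons.

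A peak was given to its nearest protein-coding gene when its centre lay inside the gene or within 50 kb of it on the mm10 build. Peaks of different libraries that overlapped by at least 1 bp were joined into a region, and a region with peaks of all 3 IP libraries is called shared. By this measure 15 of the 34 genes (44.1%) carried a shared region. The same was true of 22.9% of all protein-coding genes, and of 26.1% of those whose span lies within the range of the 34 genes, 6.08 to 272 kb. Shared regions were found at 3 of 5 regulators, 5 of 16 sterol genes (31.2%) and 7 of 13 fatty acid genes (53.8%). The sterol share is the closest of the 3 to the share of all genes. Median spans were 38.7 kb for fatty acid genes, 28.3 kb for regulators, 16.2 kb for sterol genes and 17.3 kb for all genes. The part of gene length in the order of the groups was not tested. No test was made of these shares, since there is 1 IP group and genes are not replicates of a condition. A peak in at least 1 library was found at 27 of the 34 genes, against 45.5% of all protein-coding genes, and 7 had none. Peaks went to 26, 25 and 21 of the 34 genes in IP libraries 1, 2 and 3, against 35.3%, 35.5% and 33.4% of all genes. Each of the 3 libraries had a peak, overlapping or not, at 20 of the 34 genes against 25.1%, and 24 had a region of at least 2 libraries against 31.6%.

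The promoter bases under a shared region are shown for 5 genes, 1 regulator, 2 sterol enzymes and 2 fatty acid enzymes. At these the immunoprecipitated stretch overlaps the 250 bases before an annotated transcription start. The shared region of Acly, chr11:100527797-100528015, also reaches just past its start at 100528000 into such bases, which are not shown. The sequences are those of RefSeq (GRCm38.p6, the coordinates of mm10), read 5′ to 3′ on the strand of the gene and limited to bases before the start. Capitals mark a match on either strand to ACAANG (the core of the SOX motif), CCAAT (NF-Y), GGGCGG (SP1), CACGTG (an E-box) or TCACNCCAC (a sterol response element).
Srebf1, chr11:60210487-60210721, minus strand: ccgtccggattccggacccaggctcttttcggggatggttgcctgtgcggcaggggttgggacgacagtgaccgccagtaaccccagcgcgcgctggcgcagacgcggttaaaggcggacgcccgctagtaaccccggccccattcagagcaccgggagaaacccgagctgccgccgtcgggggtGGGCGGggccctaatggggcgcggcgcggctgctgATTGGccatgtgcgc
Cyp51, chr5:4104750-4104947, minus strand: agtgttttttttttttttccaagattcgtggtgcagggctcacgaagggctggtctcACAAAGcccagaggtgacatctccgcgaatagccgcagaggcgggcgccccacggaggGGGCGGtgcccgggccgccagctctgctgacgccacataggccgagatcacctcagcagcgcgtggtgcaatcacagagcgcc
Hsd17b7, chr1:169969317-169969455, minus strand: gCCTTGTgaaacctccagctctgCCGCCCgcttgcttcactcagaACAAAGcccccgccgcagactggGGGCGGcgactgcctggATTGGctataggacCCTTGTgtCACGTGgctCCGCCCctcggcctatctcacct
Elovl5, chr9:77917215-77917364, plus strand: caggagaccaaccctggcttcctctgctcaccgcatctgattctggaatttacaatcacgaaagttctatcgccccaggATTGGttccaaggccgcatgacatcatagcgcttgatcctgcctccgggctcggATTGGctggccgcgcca
Fads2, chr19:10101504-10101683, minus strand: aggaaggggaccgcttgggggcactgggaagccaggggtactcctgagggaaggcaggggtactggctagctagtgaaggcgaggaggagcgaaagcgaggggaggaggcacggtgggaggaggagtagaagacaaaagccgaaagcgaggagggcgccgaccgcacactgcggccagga
The stretch of Hsd17b7 held 3 matches to the SOX core, that of Cyp51 held 1 and the other stretches none. Over whole promoter windows of 300 bases, 250 before the start and 50 after it, ACAANG matched 41.0% of 32619 windows. It matched 45.1% of the 1861 windows that a shared region overlapped and 40.8% of the others. The same pair of shares was 61.6% and 34.3% for GGGCGG and 45.0% and 37.1% for CCAAT. It was 9.73% and 7.05% for CACGTG, and 0.537% and 1.29% for TCACNCCAC. In percentage points GGGCGG differed most between the bound and the other windows. As a ratio TCACNCCAC differed most, but only 10 bound windows matched it. ACAANG matched 9 of the 38 windows listed for 28 of the 34 genes (23.7%). The windows of these genes more often held CCAAT (63.2% against 37.6% of all windows), GGGCGG (71.1% against 35.9%) and CACGTG (18.4% against 7.20%). TCACNCCAC was found in 1 of them, at Hmgcs1, against 1.25% of all windows. Some windows of a gene overlap each other, and a match is a description of the letters, not a binding site.

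The strength of a peak is its tag number as the authors scaled it to a library of 10000000 tags, called normalized tags here. The libraries held 32492927 to 41875666 tags and 15891 to 17730 peaks, of which 49, 49 and 40 in IP libraries 1, 2 and 3 went to the 34 genes. The headers give a threshold of 13 to 16 tags, which is 3.82 to 4.00 normalized tags, and 1.34% to 5.54% of the listed peaks of a library lie below it. Many peaks of these genes lie close to this limit of detection. The 138 peaks formed 71 regions, of which 24 (33.8%) were shared, against 34.0% of all regions given to a gene. The regions of these genes were thus found again about as often as regions in general.

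**Figure D1:**
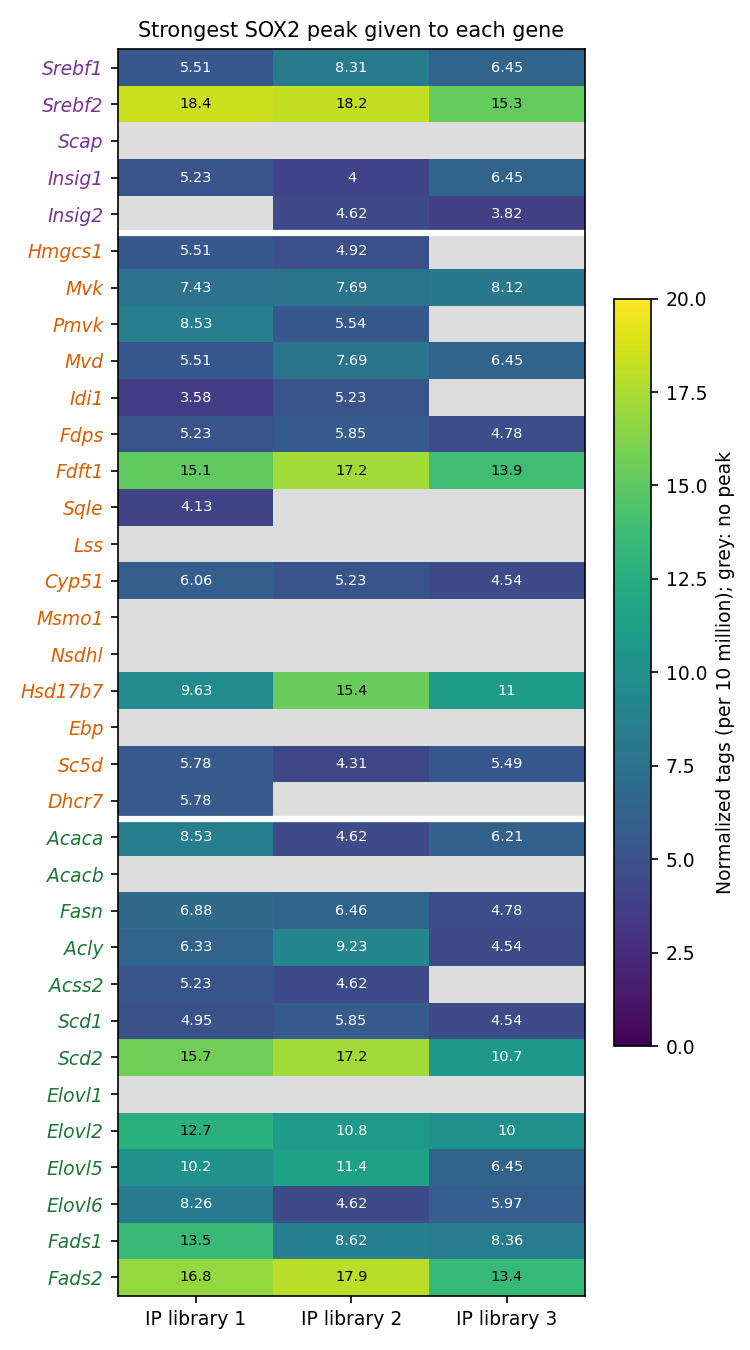
Strongest SOX2 peak given to each of the 34 genes (rows, with regulators in purple, sterol genes in orange and fatty acid genes in green) in each IP library (columns), in normalized tags, with grey for no peak. Srebf2, Fdft1, Scd2 and Fads2 are above 10 in every library, and 7 rows are grey throughout.

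Among the regulators, Srebf2 carried the strongest region of all 34 genes by normalized tags, while by enrichment over the input Fads2 and Scd2 came before it. Srebf2 encodes SREBP-2, which mainly drives cholesterol synthesis. The region lay inside the gene on chromosome 15 from 82178050 to 82178216, 30.9 kb after its start, and held 18.4, 18.2 and 15.3 normalized tags in IP libraries 1, 2 and 3. All 3 values are in the top 4% of peaks of their library (percentiles 96.2, 96.2 and 96.1). The mean was 17.3 ± 1.73 (SD, n = 3), and the region was enriched 60.8-fold, 59.8-fold and 50.3-fold over the input. Counting error alone gives a 95% Poisson interval of 14.3 to 23.4 for the 67 tags of IP library 1, and the values of both other libraries lie inside it. Of the genes with a shared region, 90.8% had a weaker strongest one. The promoter of Srebf2 held a weaker region 0.144 kb before the start, with 4.95 normalized tags in IP library 1, 4.00 in IP library 2 and no peak in IP library 3.

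Srebf1 encodes SREBP-1, which acts more on fatty acid genes. Its shared region lay just before the last of its 3 annotated starts along the gene, with its centre 0.134 kb from that start, and held 5.51, 5.54 and 4.54 normalized tags. These values are close to the detection limit, and the input was at its floor of 0.5 tags in IP library 1 but at 3 tags in IP library 3, so the enrichment ran from 36.3-fold to 4.98-fold. A neighbouring region 1.02 kb after the same start was stronger, at 8.31 and 6.45 in IP libraries 2 and 3, but no peak was called there in IP library 1.

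Insig1, whose protein retains SCAP, had a shared region 15.8 kb before its start with 5.23, 4.00 and 6.45 normalized tags. That region lies inside the non-coding gene Gm35223 and left Insig1 when non-coding genes were also counted as nearest genes. Insig2, its paralog, had a region at an alternative start in IP libraries 2 and 3 (4.62 and 3.82), and none in IP library 1. Scap had no peak of its own. Shared regions at 39.9 and 45.7 kb from Scap were nearer to Elp6 and were given to it, the latter with 15.3 ± 0.624 normalized tags (n = 3).

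The sterol genes begin with the mevalonate enzymes. Hmgcs1, which makes HMG-CoA, had 1 peak in IP library 1 (5.51) and 1 in IP library 2 (4.92), both before the start but 355 bp apart, and none in IP library 3. Mvk, mevalonate kinase, had a shared region 7.06 kb outside the gene with 7.43, 7.69 and 8.12 normalized tags, a mean of 7.75 ± 0.348 (n = 3). The 3 libraries lay close together there. Pmvk, the next kinase, had 8.53 and 5.54 in IP libraries 1 and 2 only, 0.748 kb before its second annotated start. Mvd, which decarboxylates the product, had peaks before its start in each library (strongest 5.51, 7.69 and 6.45), but that of IP library 2 lay 18 bp away from the region of the other libraries. Idi1, an isomerase, had weak peaks at its start in IP libraries 1 and 2 (3.58 to 5.23).

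Fdps, which makes farnesyl diphosphate, had a shared region centred 0.004 kb from an end of the gene with 5.23, 5.85 and 4.78 normalized tags. Its 3 peaks form a chain with no base in common, and the region is lost when peaks must overlap by 0.5 of both lengths. Fdft1, squalene synthase, commits the pathway to sterols and carried the strongest region of the sterol genes. On chromosome 14 from 63178027 to 63178195, inside the gene and 3.58 kb from an end, the region held 15.1, 17.2 and 13.9 normalized tags, a mean of 15.4 ± 1.67 (n = 3). The input was also high there, at 6 to 7 tags, so its enrichment was only 8.31-fold, 8.11-fold and 6.52-fold. A second shared region of Fdft1, 13.7 kb from an end, held 8.53, 7.39 and 6.45 normalized tags with 21.2-fold to 56.2-fold enrichment. These folds rest on an input at its floor of 0.5 tags in IP library 1 and at 1 tag in IP libraries 2 and 3. The tag value and the enrichment thus order the regions of Fdft1 in opposite ways, and the part of the input in the one with more tags was not tested.

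The remaining sterol genes act after squalene. Sqle, squalene epoxidase, had 2 peaks in IP library 1 alone, 23.5 and 36.2 kb outside the gene, and Lss, lanosterol synthase, had none. Cyp51, lanosterol demethylase, had a shared region 0.164 kb before its start with 6.06, 5.23 and 4.54 normalized tags, of which the last is near the limit. Hsd17b7, a sterol ketone reductase, had a stronger one, with 9.63, 15.4 and 11.0 normalized tags 0.198 kb before its start. The mean was 12.0 ± 3.01 (n = 3) with 15.9-fold, 25.3-fold and 18.1-fold enrichment, and IP library 2 was the highest. The region lies only 0.006 kb from the non-coding gene 3110045C21Rik, to which it went when non-coding genes were counted, and 2.90 kb from Ddr2. Msmo1, Nsdhl and Ebp, which act on the sterol nucleus, had no peak in any library. Sc5d, a desaturase, had a region 0.332 kb before its start in IP libraries 1 and 3 (5.78 and 5.49). Dhcr7, a sterol double-bond reductase, had 1 peak, in IP library 1 (5.78).

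**Figure D2:**
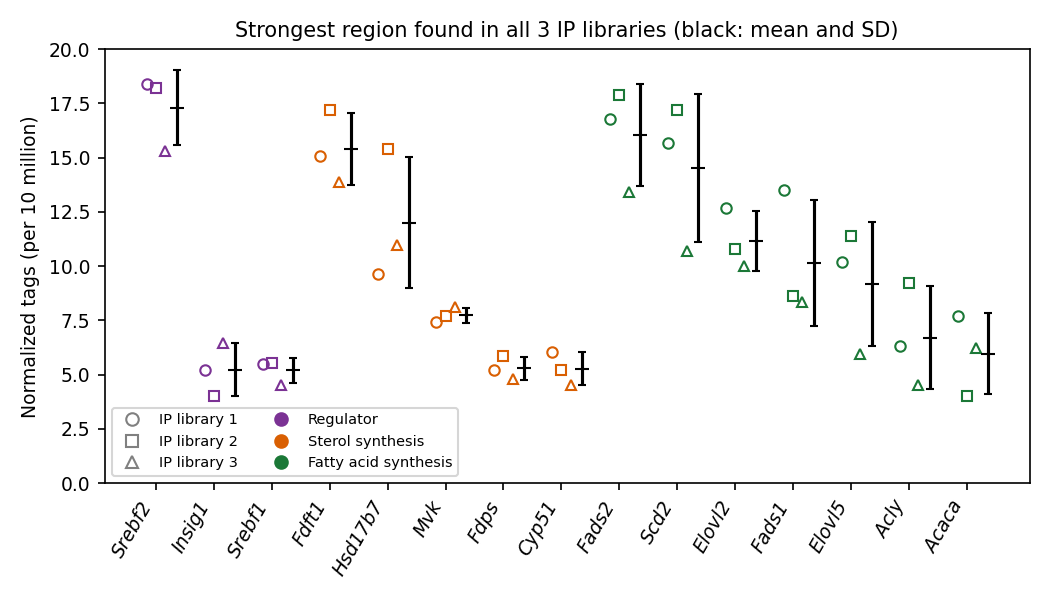
Normalized tags of the strongest shared region of the 15 genes that have one, with 1 marker per IP library and the mean and SD in black. Srebf2, Fdft1 and Fads2 lie highest in their groups, and most of the others lie below 12.

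The fatty acid genes begin with the suppliers of acetyl-CoA. Acly, which splits citrate, had a shared region at its start with 6.33, 9.23 and 4.54 normalized tags, a mean of 6.70 ± 2.37 (n = 3) and wide between libraries. Acss2, which activates acetate, had a region 0.182 kb before its start in IP libraries 1 and 2 (5.23 and 4.62). Acaca, the cytosolic acetyl-CoA carboxylase and the longest of the 34 genes, had 2 shared regions inside it. The stronger held 7.71, 4.00 and 6.21 normalized tags, 15.1 kb before the annotated start in the RefSeq window. Acacb, the mitochondrial form, had no peak. Fasn, fatty acid synthase, had a peak near its start in every library (6.88, 6.46 and 4.78), but the peak of IP library 1 was 132 bp from the other pair, so no region was shared.

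Of the 24 shared regions, 15 belonged to fatty acid genes, 12 of them to the 8 desaturases and elongases, and 6 of the 7 genes with a region had 2 or more of them. Over all protein-coding genes 7.3% had 2 or more shared regions, against 7 of the 34 genes (20.6%). Fads2, the delta-6 desaturase that starts the synthesis of long polyunsaturated fatty acids, had 3. The strongest lay inside the gene on chromosome 19 from 10071194 to 10071367 with 16.8, 17.9 and 13.4 normalized tags, a mean of 16.03 ± 2.35 (n = 3). The input was at its floor of 0.5 tags in each library, so the folds of 111, 118 and 88.1 depend on that floor. The second, at the start of Fads2, held 11.3, 11.7 and 8.36 normalized tags. Its enrichment was 38.5-fold to 74.3-fold, with the input at the floor in IP libraries 1 and 3. Among the 34 genes, only Hsd17b7 had a shared region with more tags within 1 kb of a gene end. The weakest, 14.3 kb after the start, held 4.68, 4.92 and 4.54.

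Fads1, the delta-5 desaturase, lies beside Fads2 on the same chromosome and had 2 shared regions. The stronger, inside the gene, held 13.5, 8.62 and 8.36 normalized tags, with no base common to all 3 libraries. The other lay 1.54 kb outside with 9.08, 7.69 and 7.40, a mean of 8.06 ± 0.898 (n = 3), and is nearer to the pseudogene Gm50359.

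Scd2, the stearoyl-CoA desaturase that predominates in brain, had 3 shared regions and 14 peaks in all. The strongest lay on chromosome 19 from 44312148 to 44312326, at 5.37 kb beyond the gene, with 15.7, 17.2 and 10.7 normalized tags and a mean of 14.5 ± 3.40 (n = 3). The input was at the floor there, and the folds were 103, 114 and 70.8. The region 0.374 kb from an end of Scd2 held 10.2, 11.4 and 7.16 normalized tags but only 4.72-fold to 7.50-fold enrichment, with an input of 4.9 to 5 tags. Another, 19.7 kb outside and within the non-coding gene Gm35183, held 8.81, 6.77 and 10.0. Scd1, the paralog nearby, had no shared region: its peaks at an end in IP library 1 (4.95) and IP library 3 (4.30) were 20 bp apart, and another region 40.4 kb away had peaks of IP libraries 2 and 3.

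Among the elongases, Elovl2 extends very long polyunsaturated chains and had 2 neighbouring shared regions inside the gene. The stronger, 16.7 kb after a start, held 12.7, 10.8 and 10.0 normalized tags, a mean of 11.2 ± 1.39 (n = 3), and the weaker 6.88, 8.31 and 6.69. Elovl5, which acts on shorter polyunsaturated chains, had 9 regions, the most of the 34 genes, of which 2 were shared. The stronger lay 2.21 kb outside the gene with 10.2, 11.4 and 5.97 normalized tags, lowest in IP library 3. It lies nearer to the non-coding gene Gm34829, at 1.12 kb, and with non-coding genes counted the strongest region of Elovl5 is the next, with a mean of 6.96. The other sat at the start with 8.26, 6.16 and 6.45. Elovl6, which extends saturated chains, had peaks in each library but no shared region, the best holding 8.26 in IP library 1 and 5.97 in IP library 3. Elovl1 had no peak, and the nearest shared region, 4.46 kb away, was given to Cdc20.

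**Figure D3:**
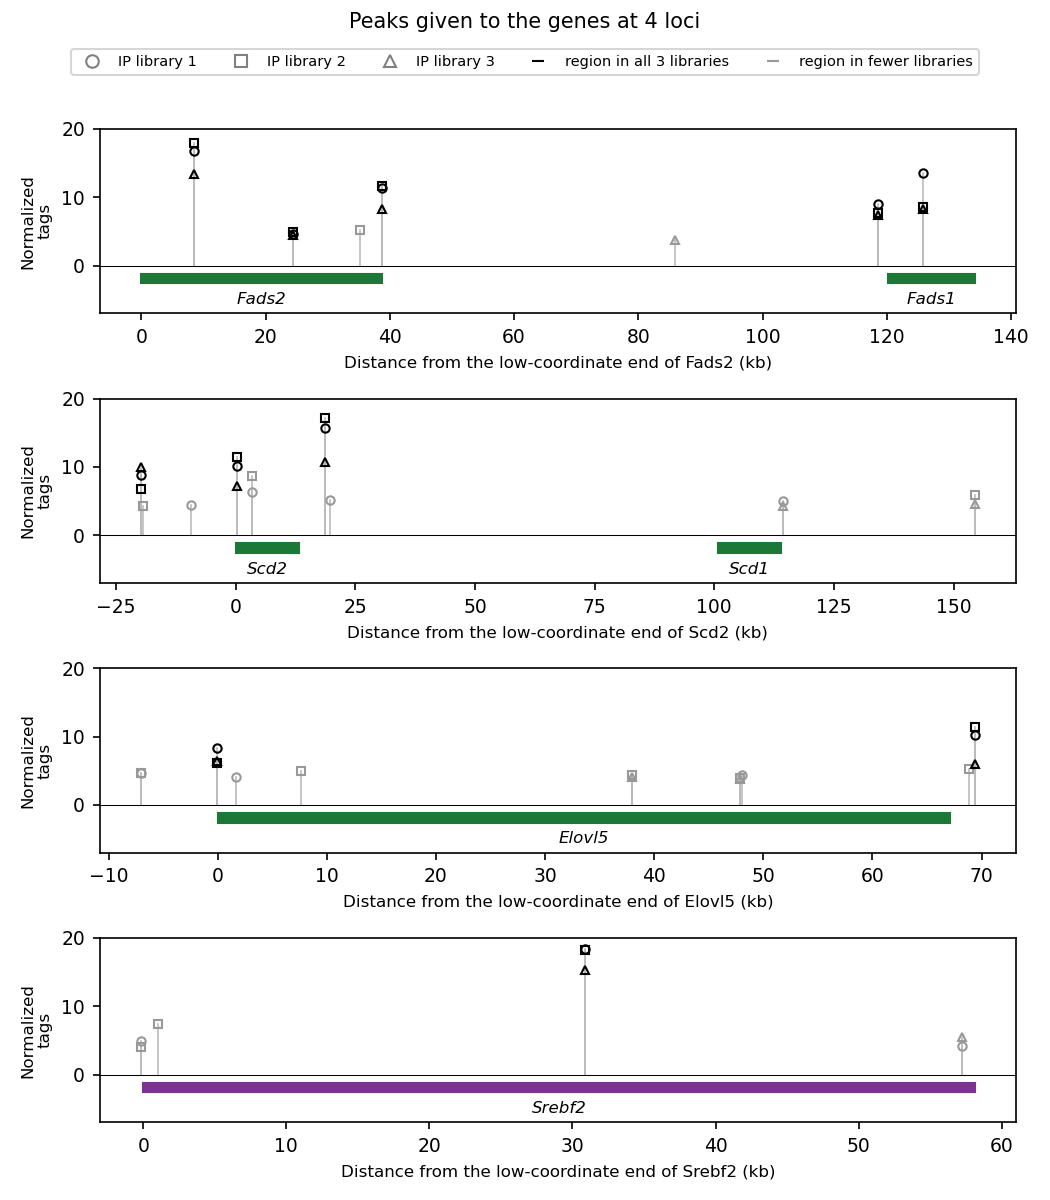
Peaks given to the genes at 4 loci, chosen after the values were seen, with distance from the low-coordinate end of the first gene in kb on the horizontal axis and normalized tags on the vertical axis. Black markers belong to shared regions and grey ones to regions of fewer libraries, and coloured bars are gene spans. The highest markers at Fads2 and Srebf2 lie inside the genes, and those at Scd2 lie 5.37 kb outside.

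The 3 groups were then compared by position. Of all regions of sterol genes, in any number of libraries, 11 of 20 (55.0%) had their centre within 1 kb of a gene end. The figure was 9 of 43 (20.9%) for fatty acid genes and 2 of 8 for regulators, beside 23.9% of all regions given to a gene. Counted by gene, the order at gene ends was the other way. Of 16 sterol genes 7 (43.8%) had a peak within 1 kb of an end, and of 13 fatty acid genes 7 (53.8%). The share of all protein-coding genes was 23.2%. Regions farther from gene ends numbered 9 at sterol genes and 34 at fatty acid genes, which have the longer spans (median 38.7 kb against 16.2 kb). Regions of 1 gene are not independent, and Mvd alone gave 3 of the 11. At 6 of those 7 sterol genes the end was an annotated start, and the seventh, Fdps, has no annotated start listed. Counted at annotated starts, which can lie inside a gene, the sterol genes came before the fatty acid genes. A peak lay there at 8 of the 13 sterol genes with a listed start, 5 of 10 fatty acid genes and 3 of 5 regulators. Fdps of the sterol genes and Scd1 and Scd2 of the fatty acid genes had a peak at an end but no listed start. They are left out of this count, so the order may depend on which genes have a listed start. No share over all genes is given for starts. Shared regions within 1 kb of an end were found at 3 sterol genes (Fdps, Cyp51 and Hsd17b7) and 4 fatty acid genes (Acly, Scd2, Elovl5 and Fads2), 20.6% of the 34 genes against 8.3% of all. Without the need for overlap, 10 of the 34 genes had a peak within 1 kb of an end in each library, against 8.54%, with Srebf2, Mvd and Fasn added. At Srebf2 these peaks lay at opposite ends of the gene. IP libraries 1 and 2 had a peak at the start, where IP library 3 had none. The region at the other end held 4.13 in IP library 1 and 5.49 in IP library 3, with no peak of IP library 2.

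The 4 shared regions with the most tags, at Srebf2, Fads2, Fdft1 and Scd2, all lay over 1 kb from both gene ends, as did 17 of the 24 shared regions of these genes and 76.7% of all shared regions given to a gene. By enrichment the order differed. The region at the start of Fads2, with a mean of 56.0-fold, was close to that of Srebf2 with 57.0-fold, and the strongest of Fdft1 had only 7.65-fold. The folds of Fads2 and Srebf2 rest on little input. At the start of Fads2 the input was at its floor of 0.5 tags in IP libraries 1 and 3 and at 1 tag in IP library 2. At Srebf2 it was 1 tag in each library. The median enrichment was 16.2-fold over the 7 regions within 1 kb of an end. It was 11.6-fold over the 11 farther inside genes and 14.6-fold over the 6 farther outside, whereas the median tags were 6.96, 7.46 and 8.29. Over all shared regions given to a gene, the median enrichment was lowest at ends, at 13.4-fold, 15.3-fold and 15.7-fold in the same order. The median tags there were 7.14, 7.82 and 7.59. The strongest shared region of a gene had a median of 10.2 normalized tags over the 7 fatty acid genes, 7.75 over the 5 sterol genes and 5.23 over the 3 regulators. Over all genes with a shared region the median was 8.25, with quartiles of 6.21 and 12.0, beside 9.19 over the 15 genes here. The groups overlapped widely, from 5.97 to 16.03 for fatty acid genes, 5.28 to 15.4 for sterol genes and 5.20 to 17.3 for regulators.

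**Figure D4:**
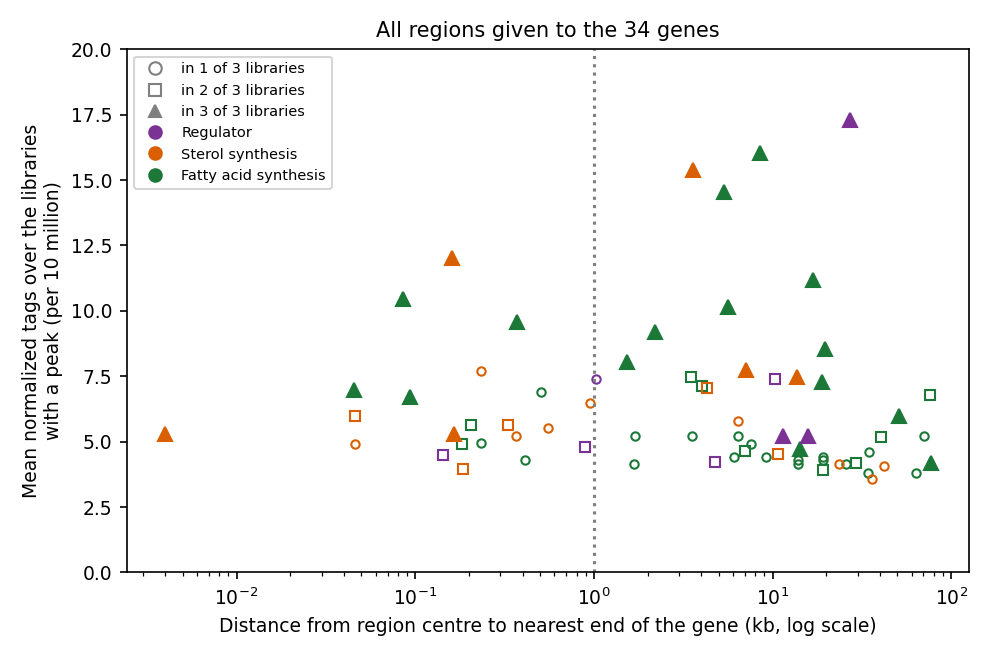
Mean normalized tags of each of the 71 regions over the libraries with a peak, against the distance from its centre to the nearest gene end on a log scale, with the dotted line at 1 kb. The 4 highest points, between 14.5 and 17.3, lie right of the line, and sterol points in orange gather left of it at 3.95 to 12.0.

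Other genes of lipid synthesis and supply were counted from a separate list of 48, and 17 of them (35.4%) had a shared region. The strongest were Fabp7, a fatty acid binding protein of radial glia and astrocytes, with 24.8, 20.3 and 11.5 normalized tags, and Acsbg1, an acyl-CoA synthetase, with 17.9, 15.7 and 16.5. Acsl6, another acyl-CoA synthetase, held 15.6 ± 3.45 and Gpam, which starts glycerolipid synthesis, 14.0 ± 1.96 (n = 3). Fabp7 differed by over 2-fold between IP libraries 1 and 3, while Acsbg1 was even. In a list of cholesterol carriers and exporters 8 of 17 genes had a shared region (47.1%), among them Soat1, which esterifies cholesterol, with 10.2 ± 1.77, and the lipoprotein receptor gene Vldlr with 8.86 ± 1.67. In a list of glycolysis and glycogen genes 8 of 26 had one (30.8%), led by Aldoc, the aldolase of astrocytes, with 10.2 ± 2.31, and Pfkfb3, an activator of glycolysis, with 10.1 ± 1.19. The share of the 34 genes lay between those of the carrier and the glycolysis lists, and the differences between lists were not tested.

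Giving a region to its nearest gene leaves out regions beside a neighbour. Another 19 shared regions lay within 50 kb of 1 of the 34 genes but nearer to a different gene, and 8 of the 19 genes with no shared region of their own had such a neighbour. Such neighbours are common. With a region counted for every gene within 50 kb, 23 of the 34 genes had one, against 46.6% of all protein-coding genes. Hmgcs1 had 2, inside Nim1k at 33.5 and 45.8 kb, with 9.24 ± 2.38 and 10.7 ± 1.49 normalized tags (n = 3). Pmvk had 1 at 36.1 kb, beside Cks1b, with 11.0 ± 2.70, and Msmo1 had 2 inside Cpe, with 5.32 ± 0.150 and 6.35 ± 0.734. Fasn had 1 at 5.84 kb, given to Dus1l, with 6.61 ± 1.28. Beyond the limit of assignment, the next shared region for which 1 of the 34 was the nearest gene lay 60.2 kb from Elovl5 with 4.13, 5.85 and 4.78 normalized tags, and the farthest inside it was 19.7 kb from Scd2. Which gene a region acts on cannot be read from its position.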

How the data were processed

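The peak lists of the 3 SOX2 IP libraries were used, and the input entered only through columns in them. Tools named in the submitters' processing notes are HOMER 4.7 and Bowtie 1.0.0, with the build mm10. The authors ran findPeaks in factor mode on each IP library with the input as control, per the file headers. A peak had to reach 4-fold over the input and over its 10 kb surroundings, with an FDR of 0.001 and Poisson p-values up to 0.0001, which the authors set, per the file headers. The deposited signal is tags scaled to 10000000 per library. The deposited fold is a ratio of tags, IP over input, with a floor of 0.5 on the input. The deposited score counts tags under a cap per bp, and the deposited focus ratio is a fraction per peak. Score, focus ratio and p-values were not used further. Depth was 36330529, 32492927 and 41875666 tags.

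Peaks overlapping by 1 bp were merged in chains, and a region took its strongest peak per library. Regions went to the nearest protein-coding RefSeq gene (GRCm38.p6, without chromosome Y) up to 50 kb from the span, and a region inside several genes counted for each. All 34 symbols matched. The gene table gives no exons, and 28 genes had an annotated start with strand. Poisson intervals are 95% and cover counting error only. Merging and assignment were tested on simulated data. Software was matplotlib 3.10.9, scipy 1.17.1, pandas 2.3.3 and numpy 2.4.6 under Python 3.11.15. The genes and lists were chosen with earlier results of these data known. Named genes were all members with a shared region and the 4 strongest of each other list, and some of the latter are not reported here. Alternatives changed the overlap, the number of libraries, the peak threshold, the window, the nearest-gene rule and the libraries used.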

Additional observations from a re-analysis of the deposited data

How the results depend on the processing

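The count of 15 genes with a shared region was 24 with regions of at least 2 libraries (9 sterol, 11 fatty acid), against 31.6% of all genes, 23 when a region counted for every member within 50 kb (9 sterol), against 46.6%, and 9 with the stronger 0.5 of each library's peaks (3 sterol, 1 regulator), against 15.1%. With peaks of at least 8-fold 10 genes kept a shared region (4 fatty acid), against 15.3%, and Elovl2, Acaca, Acly, Fdps and Srebf1 lost theirs. Leaving out 1 library gave 17 to 19 genes (6 to 7 sterol, 8 to 9 fatty acid, 3 to 4 regulators), against 25.4% to 26.9%. Merging peaks up to 300 bp apart, an alternative chosen after the data were seen, gave 17, adding Fasn and Mvd, against 23.7%. The other 5 settings gave 13 to 15, against 20.4% to 23.8%. Strengths moved beyond 1 SD in 4 of 179 values. Fdft1 fell to 7.46 with peaks of at least 8-fold. Srebf1 rose to 7.38 with 2 libraries or without IP library 1 and to 6.91 with every region within 50 kb. That count says little about stability. Genes that lost their region under a setting were left out of it, and many settings returned the same region and value. Leaving out 1 of 3 libraries can only move the mean of an unchanged region by less than 1 SD. Fdps was lost without IP library 2. By fold instead of tags, Srebf2 moved from 1 to 3 of 15, Fads2 from 2 to 1, Fdft1 from 3 to 14 and Scd2 from 4 to 2. No paired analysis was possible because there is 1 group of IP libraries and no test. Depth limits the weak peaks, since the thresholds are 13 to 16 tags, so a missing peak near 4 normalized tags is not an absence.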
